A study of Mus musculus with 18 samples.

Results

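The HOX genes are the 39 mouse genes of the HOXA, HOXB, HOXC and HOXD clusters. They were taken as the genes of the deposited count table whose symbol is Hox, a cluster letter from a to d and a number. All 39 were among the 24514 genes listed, with 11 in HOXA, 10 in HOXB, 9 in HOXC and 9 in HOXD, and 26 of them were among the 13802 genes with enough counts to be tested.

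HOX proteins are homeodomain transcription factors that give cells their position along the head-to-tail axis and along the limb. Genes at one end of each cluster act toward the head and those at the other end toward the tail, and genes with the same number in different clusters (a paralog group) are related in sequence. Fibroblasts cultured from different body sites are known to keep a HOX pattern typical of the site they came from, which makes these genes markers of positional identity.

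The cells were iMGT-Myh6-eGFP-MEF, a line of mouse embryonic fibroblasts in which doxycycline switches on the cardiac transcription factors Mef2c, Gata4 and Tbx5, and in which eGFP reports the cardiac gene Myh6. They received an siRNA against Chst7, a Golgi sulfotransferase gene, or a control siRNA on the day before day 0. The siControl and siChst7 groups at day 0 had received no doxycycline, and those at day 1 and day 3 had been given 1 µg/mL from day 0, so that the 6 groups shared the line and a transfection. Each group had 3 samples that the labels call biological replicates, each pooled from 40 wells plated at 1000 cells per well. By its title, the series asks what keeps fibroblasts fibroblasts while they are reprogrammed toward heart cells. Nothing in the labels says that the replicates came from separate derivations of the line or whether it is 1 clone, so p-values measure the spread between these samples. Samples kept for 1 or 3 days without doxycycline were not analysed here, so time in culture and induction cannot be told apart.

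The 18 libraries held 30590742 to 50021142 counts. In CPM (counts scaled to a common TMM-adjusted library total), Chst7 was at 18.6 to 40.4 in the 9 siControl libraries and at 0.238 to 2.96 in the 9 siChst7 libraries. The summed level of the 12 fibroblast markers ran from 10431 to 10749 CPM in siControl at day 0 and from 13865 to 14585 CPM at day 3, and Thy1 and Lum had 75 and 48 counts over all 18 libraries. Of the 10 tested, 3 were higher and 6 lower at day 3 against day 0, with a median log2FC of -0.34. Of all genes tested, 33.9% were higher and 39.5% lower, with a median of -0.05. Col1a1 and Vim went from 1794 ± 102 (SD, n = 3) and 3908 ± 38.5 CPM to 3079 ± 172 and 5966 ± 85.7, whereas Dcn and Col3a1 went from 169 ± 3.38 and 59.6 ± 2.87 CPM to 7.77 ± 0.40 and 12.4 ± 2.05. The summed level of the 6 cardiomyocyte markers ran from 9.94 to 11.6 CPM in siControl at day 0 and from 821 to 883 CPM at day 3. All 6 were higher at day 3, but most of the sum was Tnnt2, from 9.65 ± 0.64 to 680 ± 24.8 CPM. Myh6, the gene that eGFP reports, had 1.00 ± 0.16 CPM at day 0, 2.86 ± 0.15 at day 1 and 1.42 ± 0.08 at day 3. The 4 smooth muscle markers were all higher at day 3, with a summed mean of 1520 CPM at day 0 and 3059 at day 3. Most of that sum was Acta2, from 1294 ± 69.9 to 2800 ± 52.5 CPM, whereas Tagln went from 226 ± 11.9 to 249 ± 5.50 CPM. The part of these 3 marker lists in the HOX results was not tested. The 4 skeletal muscle markers stayed below 1 CPM in sum in every library. All replicate pairs differed by more than sampling noise. The chi-square of their counts divided by its degrees of freedom was 2.93 to 5.36 in most pairs, 14.8 and 15.2 for replicate 3 of siChst7 at day 0, and 21.9 to 57.5 in siChst7 at day 3. In that last group the pairs with replicate 2 were highest, at 57.5 and 49.8. Rn45s, the ribosomal RNA precursor, took 1.96% of the counts in replicate 1 of siChst7 at day 3 and 0.131% to 0.654% in the other 17 libraries.

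The fibroblasts expressed 3 of the 4 clusters. HOXA (GRCm38 chr6:52155367-52260880) held 27.6% of the 219955 HOX counts, HOXB (chr11:96194316-96368254) 20.7% and HOXC (chr15:102921131-103036856) 51.6%. HOXD (chr2:74668225-74765142) held 61 counts over 18 libraries, or 0.0277% of HOX counts with an exact binomial 95% interval of 0.0212% to 0.0356%, which covers counting error only. Hoxd12 had no count in any library, and the other 8 HOXD genes had 1 to 19 counts in all. In bulk RNA, fewer cells expressing a gene and less RNA of it per cell cannot be told apart.

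Within the expressed clusters the middle paralog groups carried most of the RNA. Per kilobase of gene, paralog groups 4 to 8 made up 82.1% to 84.5% of the HOX level in the 18 libraries, groups 9 to 13 made up 12.3% to 15.0%, and groups 1 to 3 made up 2.21% to 3.66%. Hoxc6 and Hoxc8, which pattern the thoracic region, led with a mean over all libraries of 30.1 and 28.9 CPM per kilobase. Hoxb7 followed with 16.6, Hoxa5 with 9.19, Hoxb6 with 8.98 and Hoxa7 with 8.58 CPM per kilobase. The leading gene changed with time: in siControl, Hoxc8 had 28.6 ± 1.14 CPM per kilobase (SD, n = 3) at day 0 and Hoxc6 had 18.7 ± 0.29, whereas at day 3 they had 31.4 ± 0.26 and 37.3 ± 0.41. In siChst7 at day 0 they had 33.5 ± 2.23 and 25.8 ± 1.18 CPM per kilobase.

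Toward the cluster ends the levels were lower, with exceptions at the tail end. At the head end, Hoxb1 and Hoxb2 had 25 and 15 counts over all libraries and were not tested. Hoxc11 and Hoxc12, with 5 counts each, were not tested either, although their neighbours Hoxc10 and Hoxc13 reached 1.57 and 1.58 CPM per kilobase. Hoxb13, which lies apart from the rest of HOXB, reached 1.82 CPM per kilobase, above Hoxb9 at 0.687. Hoxa13 was the lowest tested member at 0.146 CPM per kilobase, with 141 counts in all.

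The ranking of the 26 tested genes was similar from group to group. Spearman's rho of the mean levels per kilobase was 0.969 between days 0 and 1 and 0.923 between days 0 and 3 in siControl. It was 0.985, 0.985 and 0.991 between siChst7 and siControl at days 0, 1 and 3. These are correlations across genes, which are not independent replicates, and the genes share libraries and gene lengths.

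**Figure D1:**
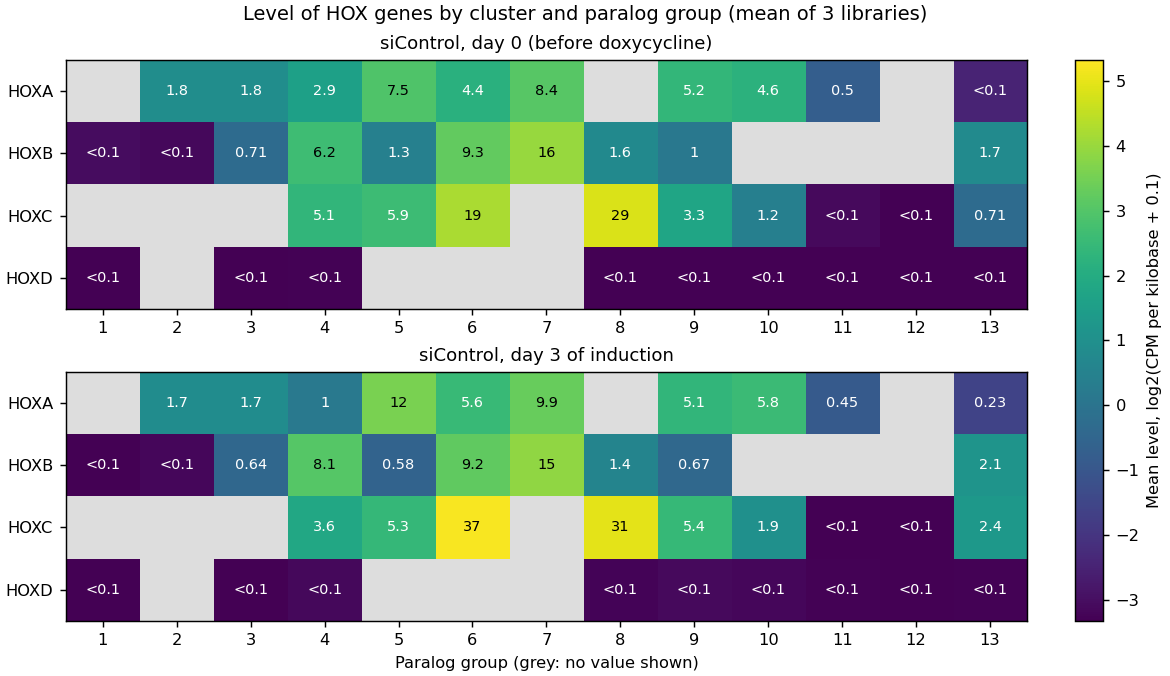
Mean level of the HOX genes shown in siControl at day 0 (upper panel) and day 3 (lower panel), in CPM per kilobase (numbers in the cells; mean of 3 libraries), with clusters as rows and paralog groups as columns; colour gives log2(CPM per kilobase + 0.1) and grey marks positions with no value shown. All HOXD cells are below 0.1, and the highest values lie at Hoxc6 and Hoxc8 on both days.

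RefSeq promoter windows of GRCm38, from 250 bases before to 50 after a listed start, were at hand for 22 of the 39 members. A listed start need not be the outer end of the gene. The Hoxc4 window printed below lies within the gene, which spans chr15:103018097-103036856. The 3 members with large changes in siControl that had a window are printed, since Hoxa5 was called higher and Hoxa11 (at day 1) and Hoxc4 were called lower. Hoxa11 shares exon bases with Hoxa11os on the other strand, and the strand setting of the counting was not given. Hoxd9, added after its values were seen, stands for the cluster with almost no counts. Each runs 5′ to 3′ on the gene's strand, and capitals mark CpG pairs.
Hoxa5, chr6:52204538-52204837, minus strand: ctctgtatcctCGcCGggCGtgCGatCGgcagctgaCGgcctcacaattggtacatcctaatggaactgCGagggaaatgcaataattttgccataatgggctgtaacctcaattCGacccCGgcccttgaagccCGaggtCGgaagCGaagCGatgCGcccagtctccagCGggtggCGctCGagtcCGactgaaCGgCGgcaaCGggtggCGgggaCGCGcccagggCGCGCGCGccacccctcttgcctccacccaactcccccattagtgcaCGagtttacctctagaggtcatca
Hoxa11, chr6:52245761-52246060, minus strand: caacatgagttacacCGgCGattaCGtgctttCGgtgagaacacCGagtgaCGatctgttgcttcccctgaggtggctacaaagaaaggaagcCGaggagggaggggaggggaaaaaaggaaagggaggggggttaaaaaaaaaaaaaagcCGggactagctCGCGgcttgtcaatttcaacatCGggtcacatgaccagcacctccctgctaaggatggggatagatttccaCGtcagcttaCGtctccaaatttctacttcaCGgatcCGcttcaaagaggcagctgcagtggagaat
Hoxc4, chr15:103034145-103034444, plus strand: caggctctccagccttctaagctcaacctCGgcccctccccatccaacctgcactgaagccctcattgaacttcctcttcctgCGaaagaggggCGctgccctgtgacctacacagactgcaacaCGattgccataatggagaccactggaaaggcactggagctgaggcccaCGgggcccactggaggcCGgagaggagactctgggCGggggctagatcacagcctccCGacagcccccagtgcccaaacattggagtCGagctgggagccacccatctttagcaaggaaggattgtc
Hoxd9, chr2:74697513-74697812, plus strand: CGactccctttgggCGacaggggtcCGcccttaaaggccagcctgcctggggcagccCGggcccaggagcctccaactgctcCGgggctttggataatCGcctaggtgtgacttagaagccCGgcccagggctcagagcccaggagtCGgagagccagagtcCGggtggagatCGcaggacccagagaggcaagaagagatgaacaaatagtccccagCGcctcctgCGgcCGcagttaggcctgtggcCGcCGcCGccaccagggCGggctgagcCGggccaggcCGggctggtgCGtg
The windows hold 29, 15, 9 and 20 CpG pairs, against a median of 7 over all 32851 RefSeq windows. The 24 windows of the 22 members had a median of 14.5, and the 10 HOXD windows had a median of 20 where the 10 HOXA windows had 17.5. Short motifs of the induced factors were looked for on both strands. The GATA motif AGATAA was in 0 of the 24 HOX windows and in 11.2% of all windows, the T-box motif AGGTGT in 3 (Hoxa10, Hoxb4 and Hoxd9) against 13.7%, and the MEF2 motif (CTA, any 4 bases, TAG) in 1 (Hoxa6) against 3.69%. The HOX-PBX motif TGATTNAT was in 2 windows (Hoxa2 and Hoxd11) against 3.22%. A match is a description of these letters and not a site.

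In siControl cells, individual HOX genes moved in both directions over 3 days of induction, and few moved far. At day 3 against day 0, 11 of the 26 tested members were higher and 4 lower (edgeR adjusted p below 0.05). That was 57.7% of them, whereas of all genes tested 73.4% were called, 33.9% higher and 39.5% lower. A called change of 2-fold or more was seen in 4 members, Hoxc13 and Hoxa13 upward and Hoxa4 and Hoxb5 downward, and in 21.9% of all genes tested. The median absolute log2 fold change (log2FC) was 0.35 over the tested members and 0.47 over all genes. The median standard error was 0.15 against 0.08, so the test was less precise for HOX genes than for a typical gene.

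In HOXC, 5 of the 7 tested genes were higher at day 3 and 1 was lower, where 33.9% of all genes tested were higher and 39.5% lower. Hoxc6 had 30.1, 29.8 and 29.2 CPM at day 0, 43.9, 43.7 and 42.4 CPM at day 1, and 59.3, 60.0 and 58.7 CPM at day 3. No library of one day overlapped another, and each step was upward. The log2FC was 0.54 ± 0.05 (SE) from day 0 to day 1 (edgeR adjusted p = 3.35e-09), 0.45 ± 0.05 from day 1 to day 3 (6.93e-08) and 1.00 ± 0.05 over both (3.74e-14).

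Hoxc13, a gene of the tail end that is also known from hair follicles, rose more in proportion from a lower level. It had 2.19, 1.48 and 1.54 CPM at day 0, 2.98, 3.07 and 2.70 at day 1 and 5.33, 5.85 and 6.01 at day 3. The days did not overlap, and the log2FC from day 0 to day 3 was 1.73 ± 0.15 (edgeR adjusted p = 1.02e-09).

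Hoxc9, a gene of the thoracic and lumbar region, had 6.02, 5.29 and 5.82 CPM at day 0, 7.65, 8.65 and 9.07 at day 1 and 9.82, 7.23 and 10.7 at day 3. Both later days lay above day 0 and overlapped each other. Against day 0, day 1 differed by 0.57 ± 0.12 (edgeR adjusted p = 0.000244) and day 3 by 0.69 ± 0.12 (1.27e-05). Hoxc10, which acts in the lumbar region and hindlimb, had 2.65, 1.99 and 2.45 CPM at day 0, 1.93, 2.79 and 2.44 at day 1, and 4.40, 3.35 and 3.24 at day 3. Its rise over 3 days, 0.62 ± 0.23 (edgeR adjusted p = 0.0187), did not pass the test without siControl day 0 replicate 2 (0.0828) or without siControl day 3 replicate 1 (0.0978).

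Hoxc8, the member with the most counts, dipped and recovered. It had 70.6, 67.6 and 65.2 CPM at day 0, 56.7, 54.5 and 55.5 at day 1 and 74.2, 73.7 and 74.9 at day 3. Day 1 lay below both other days in every library. The fall at day 1 was -0.29 ± 0.05 (edgeR adjusted p = 9.87e-05), and the net difference at day 3, 0.13 ± 0.05 (0.0329), did not pass in 5 of the 6 fits that left out 1 of the compared libraries (highest 0.148, without siControl day 0 replicate 3). Hoxc4, at the head end of the cluster, was the HOXC gene that fell, from 10.1, 9.58 and 10.7 CPM at day 0 to 7.53, 7.12 and 7.88 at day 1 and 6.72, 7.29 and 7.23 at day 3. The later days did not overlap day 0, and the log2FC at day 3 was -0.51 ± 0.08 (edgeR adjusted p = 5.42e-06).

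In HOXA, 5 of the 11 genes were higher at day 3 and Hoxa4 was lower, beside the same 33.9% and 39.5% of all genes tested. Hoxa4, which is expressed from the hindbrain backward, had 4.19, 4.60 and 4.55 CPM at day 0, 1.99, 2.36 and 2.41 at day 1 and 1.35, 1.63 and 1.74 at day 3. All libraries of the later days were below day 0. Day 1 differed from day 0 by -0.98 ± 0.17 (edgeR adjusted p = 4.27e-05) and day 3 by -1.49 ± 0.18 (1.16e-07). A further step from day 1 to day 3, -0.51 ± 0.19 (0.0315), did not pass in 11 of 26 alternatives (highest 0.125, with library totals). Exons of Hoxa4 share 16.0% of their bases with a gene on the other strand, and the strand setting of the counting is not given.

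Its neighbour Hoxa5, needed for lung and axial patterning, went the other way. Hoxa5 had 16.2, 13.5 and 12.7 CPM at day 0, 15.5, 16.6 and 17.2 at day 1 and 21.9, 22.6 and 21.8 at day 3. Day 3 was above every earlier library, whereas days 0 and 1 overlapped. The log2FC at day 3 against day 0 was 0.64 ± 0.08 (edgeR adjusted p = 2.71e-07).

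Hoxa7 and Hoxa10, which pattern the thoracic and lumbar spine, were higher by less. Hoxa7 had 16.3, 16.3 and 16.7 CPM at day 0, 13.4, 15.7 and 14.6 at day 1, and 18.4, 19.4 and 19.9 at day 3, a log2FC over 3 days of 0.23 ± 0.08 (edgeR adjusted p = 0.00963). Hoxa10 had 14.6, 14.2 and 14.8 CPM at day 0, 21.2, 16.9 and 18.0 at day 1 and 19.0, 17.0 and 18.5 at day 3, with 0.32 ± 0.08 over 3 days (edgeR adjusted p = 0.00175). Day 3 lay above day 0 in every library of both genes. Hoxa6 was higher by 0.37 ± 0.15 (edgeR adjusted p = 0.0265), which did not pass in 4 fits that left out a library (highest 0.197, without siControl day 3 replicate 3).

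Hoxa13, which patterns the hand and foot and the urogenital tract, was called from few counts. It had 4, 8 and 2 counts in siControl at day 0, 2, 6 and 8 at day 1 and 4, 18 and 18 at day 3. The days overlapped, and the log2FC of 1.54 ± 0.63 (edgeR adjusted p = 0.0319) did not pass without siControl day 0 replicate 1 or 3, without siControl day 3 replicate 2 or 3, or with no filter on low counts (0.0720 to 0.132). Hoxa11, which acts in the forearm and kidney, was called against day 0 at day 1 and not at day 3, with -0.76 ± 0.30 (edgeR adjusted p = 0.0333) at day 1. Its antisense neighbour Hoxa11os, which covers 35.0% of its exon bases, was also lower at day 1, at -1.56 ± 0.31 (0.000141), and without the strand setting reads of the pair cannot be told apart. Hoxa11 had 1.15, 0.996 and 1.29 CPM at day 0 and 0.903, 0.689 and 0.436 at day 1, and its call ended in 4 fits that left out a library (highest 0.174, without siControl day 1 replicate 3).

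In HOXB, Hoxb4 was higher at day 3, Hoxb5 and Hoxb9 were lower, and the other 5 tested genes were not called. Hoxb5, which acts in heart, lung and neural crest development, had 2.56, 2.19 and 2.43 CPM at day 0, 1.38, 1.78 and 1.72 at day 1 and 0.706, 1.29 and 1.29 at day 3. The 3 days did not overlap, and the log2FC at day 3 against day 0 was -1.10 ± 0.21 (edgeR adjusted p = 8.03e-05). Its steps to day 1, -0.55 ± 0.21 (0.0262), and from day 1 to day 3, -0.55 ± 0.23 (0.0453), did not pass in 3 and in 21 of 26 alternatives (highest edgeR adjusted p of 0.114 and 0.223, without siControl day 1 replicate 1 and day 3 replicate 1).

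Hoxb9, a thoracic gene, had 2.60, 2.79 and 2.70 CPM at day 0, 1.08, 1.55 and 2.15 at day 1 and 1.81, 1.91 and 1.68 at day 3. Day 0 stood above both later days, which overlapped. Day 1 differed from day 0 by -0.75 ± 0.20 (edgeR adjusted p = 0.0026) and day 3 by -0.58 ± 0.19 (0.00993), or by -0.44 with library totals (0.0514). Hoxb4, known for its role in blood stem cells, had 16.2, 16.3 and 15.2 CPM at day 0 and 21.7, 19.6 and 21.1 at day 3, a log2FC of 0.39 ± 0.07 (edgeR adjusted p = 1.52e-05).

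The uncalled members did not all have wide errors. Hoxb7, the uncalled member with the highest level per kilobase, had 20.1, 20.8 and 19.7 CPM at day 0 and 18.2, 18.5 and 19.4 at day 3, with a log2FC of -0.11 ± 0.08 (95% interval -0.28 to 0.06, edgeR adjusted p = 0.201). Hoxb6 had 12.5, 12.0 and 12.5 CPM at day 0 and 13.5, 11.4 and 11.8 at day 3, with -0.02 (95% interval -0.20 to 0.17). Hoxa9 had 15.2, 17.9 and 17.6 CPM at day 0, 13.1, 13.5 and 13.7 at day 1 and 18.0, 15.4 and 16.1 at day 3, so that a fall at day 1 of -0.33 ± 0.07 (edgeR adjusted p = 0.000544) was followed by a rise of 0.29 ± 0.07 (0.00207). Hoxa2 and Hoxa3, of the head end, had intervals of -0.38 to 0.31 and -0.35 to 0.30 at day 3.

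**Figure D2:**
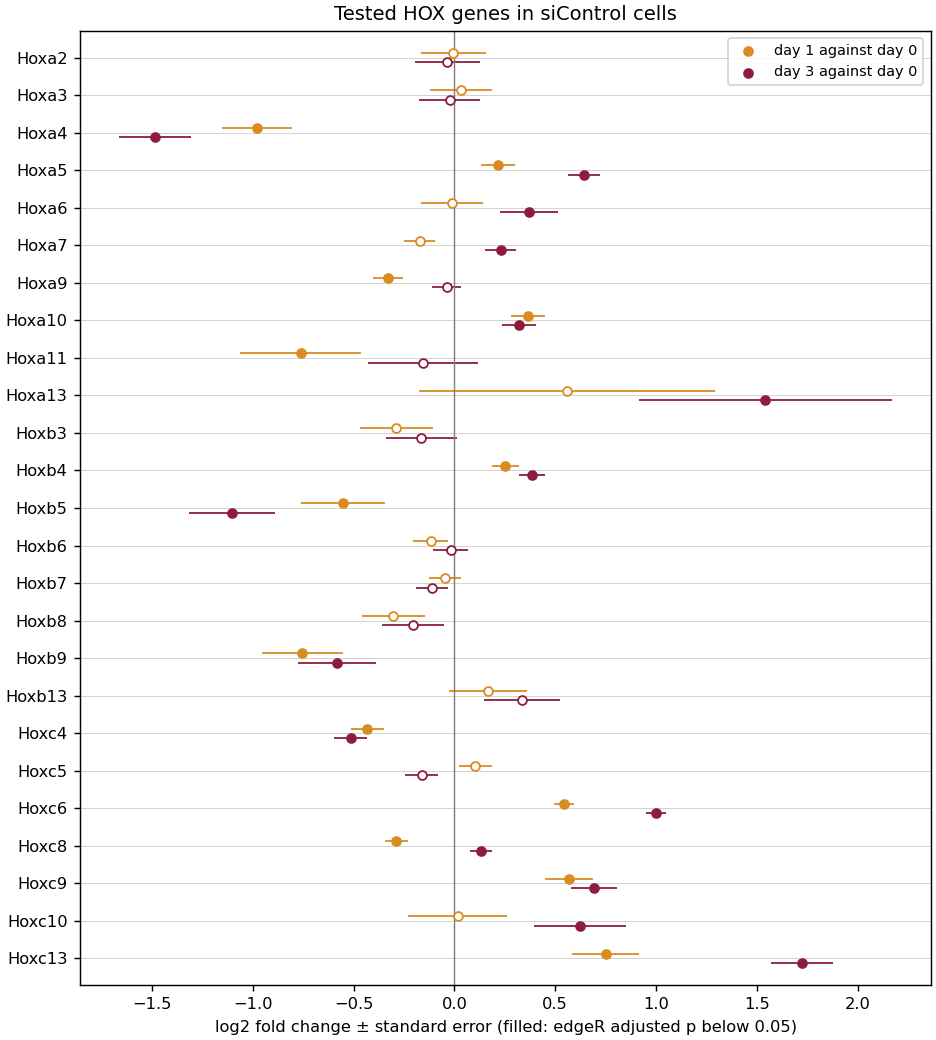
Log2 fold change (horizontal axis, ± standard error) of tested HOX genes in siControl cells at day 1 (orange) and day 3 (dark red) against day 0, with filled points where the edgeR adjusted p was below 0.05. Hoxc13, Hoxc6, Hoxc9 and Hoxa5 lie to the right on both days, and Hoxa4, Hoxb5, Hoxb9 and Hoxc4 to the left.

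By day, 7 members were higher and 7 lower at day 1 against day 0, or 53.8% of those tested. Of all genes 60.3% were called, 29.5% higher and 30.8% lower. From day 1 to day 3, 8 members were higher and 3 lower (42.3%), and of all genes 55.2% were called, 22.8% higher and 32.3% lower. The 3 lower ones were Hoxb5, Hoxa4 and Hoxc5, and with library totals in place of TMM the split was 12 higher and 0 lower, while that of all called genes went from 41.4% to 65.0% higher. For day 3 against day 0 the split became 12 and 3 and the share of all called genes that were higher went from 46.2% to 57.8%. With library totals the median of all genes tested shifted from -0.05 to 0.10 in each of these comparisons. Scaling by the upper quartile gave 9 higher and 0 lower from day 1 to day 3, with 57.3% of all called genes higher. The stricter filter, with TMM kept, also gave 9 and 0 (50.7%). RLE scaling and only the compared libraries gave 9 and 1 (50.4% and 50.3%), no filter 8 and 1, and DESeq2 9 and 2. The call of Hoxc5 held in 22 of 26 alternatives (highest edgeR adjusted p of 0.250, with library totals).

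With siChst7, 7 members were higher and 7 lower at day 3 against day 0, or 53.8%, and of all genes 75.7% were called, 37.9% higher and 37.8% lower. A called change of 2-fold or more was seen in 1 member, Hoxc13, and in 22.8% of all genes. Hoxc13 rose by 1.26 ± 0.14 (edgeR adjusted p = 6.48e-08), Hoxc6 by 0.70 ± 0.05 (1.60e-11) and Hoxa5 by 0.43 ± 0.08 (5.31e-05). Hoxa4 had a log2FC of -0.95 ± 0.18 (edgeR adjusted p = 4.84e-05), Hoxb5 of -0.78 ± 0.22 (0.00325) and Hoxc4 of -0.68 ± 0.08 (1.31e-07). These 6 genes moved in the direction seen in siControl, each set of libraries having its own day 0. Hoxa7 was lower at day 3 with siChst7, at -0.54 ± 0.08 (edgeR adjusted p = 1.32e-06), and Hoxb7 was higher, at 0.39 ± 0.08 (0.000103).

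**Figure D3:**
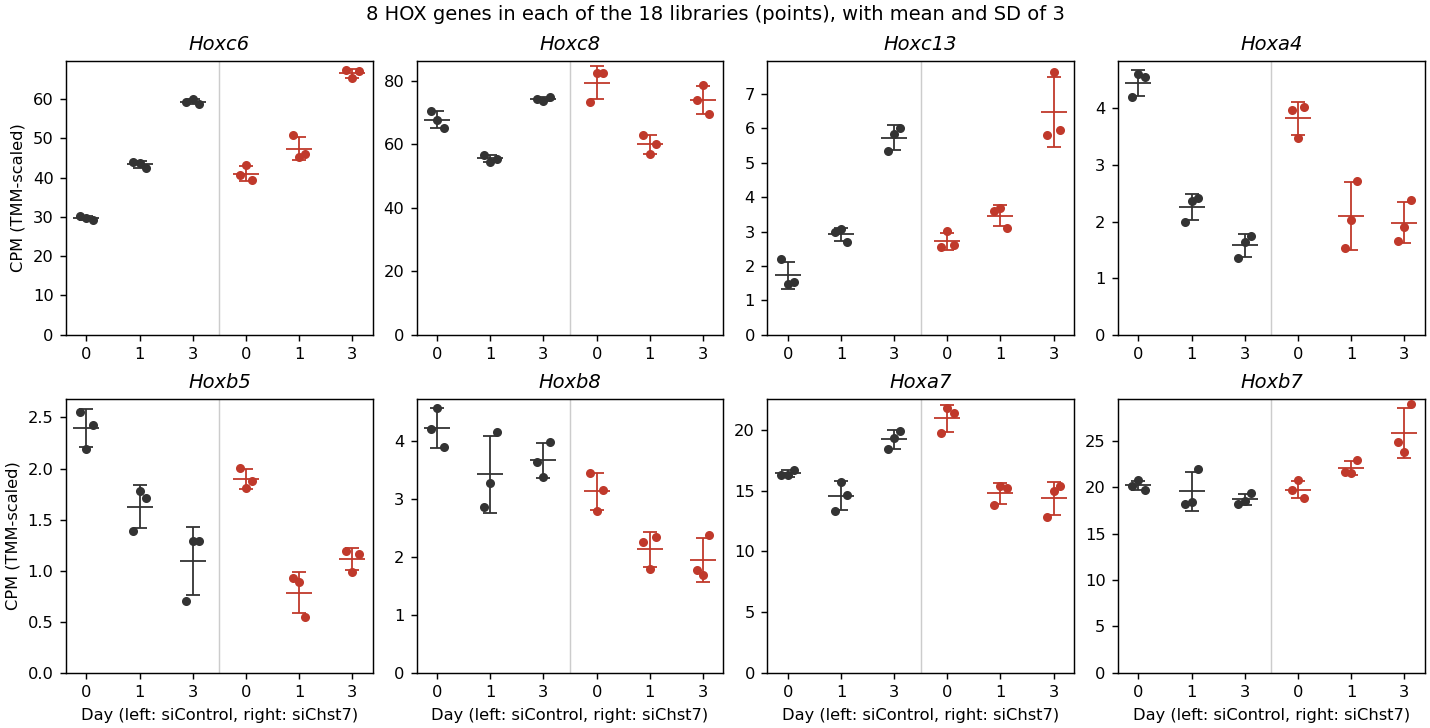
CPM of 8 HOX genes (vertical axes, from 0) in each of the 18 libraries at days 0, 1 and 3 (horizontal axes), with siControl on the left of each panel (black) and siChst7 on the right (red); bars are the mean and SD of 3 libraries. Hoxc6 climbs in both arms, and Hoxb8 lies lower with siChst7 on each day. Hoxa7 lies higher with siChst7 at day 0 and lower at day 3, and Hoxb7 lies higher with siChst7 at day 3.

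With Chst7 knockdown, the share of HOX genes called was near that of all genes at days 0 and 1 and below it at day 3. The median standard error at days 0, 1 and 3 was 0.15, 0.15 and 0.14 for HOX genes. It was 0.08 for all genes on each day, so the test was less precise for HOX genes. Before doxycycline, 4 members were higher and 2 lower than in siControl, or 23.1% of those tested, and of all genes 27.4% were called, 13.9% higher and 13.5% lower. At day 1, 4 members were lower and 0 higher (15.4%), and of all genes 17.6% were called, 8.86% higher and 8.72% lower. At day 3, 4 members were higher and 2 lower (23.1%), and of all genes 44.7% were called, 23.1% higher and 21.6% lower. Called changes of 2-fold or more were seen in 0 members at days 0 and 3 (1.57% and 3.04% of all genes) and in 1 at day 1, Hoxb5 (1.01%). The summed smooth muscle markers moved with the knockdown, from 1466 to 1614 CPM in siControl and 536 to 587 CPM in siChst7 at day 0, and from 3003 to 3111 against 3337 to 4108 CPM at day 3. Of the 6 cardiomyocyte markers, 5 were higher with siChst7 at day 3, with a sum of 821 to 883 CPM in siControl and 989 to 1248 CPM in siChst7. Most of both sums was Tnnt2, at 680 ± 24.8 and 815 ± 68.9 CPM. Of the 10 fibroblast markers tested, 4 were higher and 1 lower with siChst7 at day 0, 5 and 1 at day 1, and 3 and 5 at day 3. Of the 3 RNA quality genes (Rn45s, Malat1 and Neat1), 3 were higher at day 3. The part of these lists in the HOX differences was not tested. With library totals the split at day 0 was 6 HOX genes higher and 1 lower, and that of all called genes went from 50.6% to 69.4% higher. At day 3 the split of HOX genes was 4 and 4 with RLE scaling or the stricter filter. It was 4 and 3 with upper quartile scaling, DESeq2 or no filter, and 3 and 3 with library totals. In these settings 41.9% to 47.6% of all called genes were higher at day 3, against 51.6% in the main fit.

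At day 0, Hoxc6 had 40.6, 43.1 and 39.4 CPM with siChst7 against 30.1, 29.8 and 29.2 CPM. The groups were apart, with a log2FC of 0.47 ± 0.05 (edgeR adjusted p = 2.92e-07). Hoxc13 had 2.56, 3.01 and 2.60 CPM against 2.19, 1.48 and 1.54, also apart, with 0.65 ± 0.16 (edgeR adjusted p = 0.00442).

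Hoxa7 had 19.7, 21.8 and 21.4 CPM with siChst7 at day 0 against 16.3, 16.3 and 16.7, a log2FC of 0.35 ± 0.07 (edgeR adjusted p = 0.00105). Hoxc8 had 73.3, 82.5 and 82.5 CPM against 70.6, 67.6 and 65.2, a log2FC of 0.23 ± 0.05 (edgeR adjusted p = 0.00266). Hoxb9 was lower, at 1.65, 1.85 and 1.63 CPM against 2.60, 2.79 and 2.70, with -0.66 ± 0.19 (edgeR adjusted p = 0.0134). In all 3 genes the groups did not overlap at day 0, and at days 1 and 3 Hoxb9 was at -0.04 ± 0.21 and -0.01 ± 0.21.

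Hoxb8, which is expressed in the trunk and in myeloid progenitors, was the member called lower with siChst7 on every day. It had 3.45, 2.80 and 3.16 CPM against 4.22, 4.58 and 3.90 at day 0, 2.27, 1.79 and 2.36 against 2.86, 3.28 and 4.16 at day 1, and 1.77, 1.69 and 2.38 against 3.64, 3.39 and 3.99 at day 3. The arms did not overlap on any day, and the log2FC was -0.43 ± 0.15 (edgeR adjusted p = 0.0423), -0.69 ± 0.17 (0.00659) and -0.93 ± 0.17 (0.00015). The day 0 call ended in 8 of 26 alternatives (highest edgeR adjusted p of 0.155, without siChst7 day 0 replicate 2), and the day 1 call ended without siControl day 1 replicate 3 (0.0618). The day 3 call held in every alternative run.

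At day 1 the other lower genes were Hoxb5, Hoxb3 and Hoxa2. Hoxb5 had 0.923, 0.884 and 0.550 CPM with siChst7 against 1.38, 1.78 and 1.72, groups that did not overlap, with a log2FC of -1.05 ± 0.24 (edgeR adjusted p = 0.00364). Hoxb3, a hindbrain gene, had 1.24, 1.28 and 1.52 CPM against 1.84, 2.21 and 2.47, with -0.69 ± 0.20 (edgeR adjusted p = 0.0181), and 52.9% of its exon bases overlap Hoxb3os on the other strand. That call ended without siControl day 1 replicate 2 or 3 or siChst7 day 1 replicate 1 or 2 (highest edgeR adjusted p of 0.0913). Hoxa2, which patterns the hindbrain and face, had 2.82, 2.02 and 1.91 CPM against 2.83, 3.56 and 3.11, with -0.50 ± 0.17 (edgeR adjusted p = 0.0496), and its call held in 9 of 26 alternatives. At day 1 the split of 0 higher and 4 lower became 0 and 2 without siControl day 1 replicate 2 or siChst7 day 1 replicate 2, 1 and 1 without siControl day 1 replicate 3, and 0 and 6 with only the compared libraries. Hoxc6, the uncalled member with the highest level per kilobase, had 50.8, 45.4 and 46.0 CPM against 43.9, 43.7 and 42.4, with 0.13 ± 0.05 (edgeR adjusted p = 0.0814). Hoxc8 had 63.1, 57.1 and 60.0 CPM against 56.7, 54.5 and 55.5 (0.11, 95% interval -0.01 to 0.23).

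At day 3, Hoxb7 had 24.9, 23.8 and 28.9 CPM with siChst7 against 18.2, 18.5 and 19.4. The groups were apart, with a log2FC of 0.46 ± 0.08 (edgeR adjusted p = 5.19e-05). Hoxa7, its paralog, was lower, at 12.8, 15.0 and 15.4 CPM against 18.4, 19.4 and 19.9, with -0.42 ± 0.08 (edgeR adjusted p = 0.000152). The 2 tested members of paralog group 7 thus differed in opposite directions. Exons of Hoxa7 share 20.4% of their bases with Hoxaas3 on the other strand, whose log2FC was 0.12 ± 0.24.

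Hoxc5 had 17.6, 18.6 and 17.9 CPM at day 3 against 15.2, 14.5 and 13.7, with 0.32 ± 0.08 (edgeR adjusted p = 0.00314). Hoxa10 had 23.9, 19.8 and 23.8 CPM against 19.0, 17.0 and 18.5, with 0.31 ± 0.08 (edgeR adjusted p = 0.00444), and Hoxc6 had 67.4, 65.3 and 67.1 against 59.3, 60.0 and 58.7, with 0.17 ± 0.05 (0.0076). In all 3 genes the arms did not overlap. Without siChst7 day 3 replicate 3 the calls of Hoxa10 (edgeR adjusted p = 0.0575) and Hoxc6 (0.133) ended, and that of Hoxc6 also ended with library totals (0.0678) and with no filter on low counts (0.162). The log2FC of Hoxc6 was 0.11, 0.12 and 0.12 in these fits. Scaling is computed anew in each fit. Leaving out that library also moved Hoxa4 in siControl, day 3 against day 1, from -0.51 to -0.45. The part of scaling in these calls was not tested. Hoxc8 had 73.8, 78.6 and 69.7 CPM against 74.2, 73.7 and 74.9, a log2FC with a 95% interval of -0.12 to 0.11. The siChst7 libraries of day 3 are those with the widest replicate spread, which was largest in the pairs with replicate 2, and the most Rn45s. Without replicate 1 of that group, the library with the most Rn45s, 6 members were called, as with it. Without replicate 2 the number was also 6, and without replicate 3 it was 5. The part of the spread in the result was not tested.

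**Figure D4:**
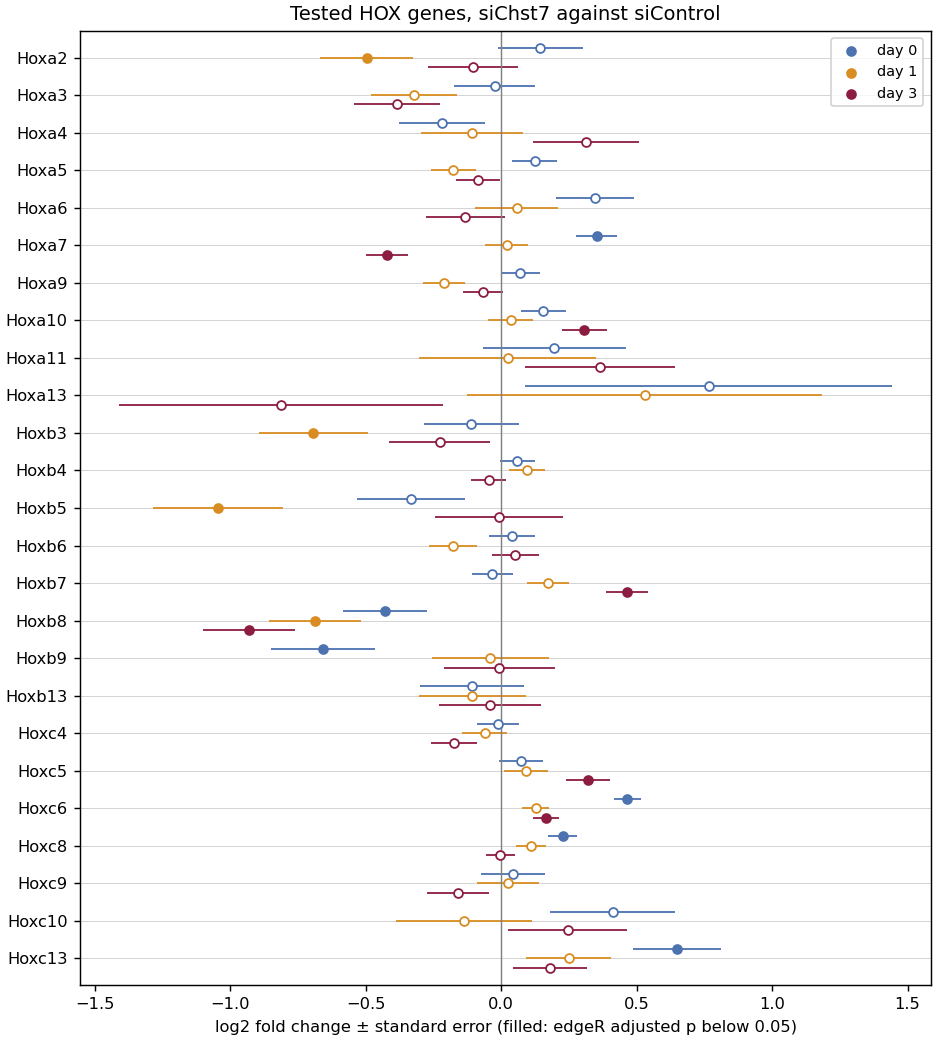
Log2 fold change (horizontal axis, ± standard error) of siChst7 against siControl for tested HOX genes at day 0 (blue), day 1 (orange) and day 3 (dark red), with filled points where the edgeR adjusted p was below 0.05. Hoxb8 lies to the left on all 3 days, and Hoxa7 moves from the right at day 0 to the left at day 3.

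Whether the knockdown difference itself changed after induction was tested with interaction terms. Against day 0, the difference at day 1 was lower for 1 member, Hoxc6, and higher for 0. Of all genes 11.7% were called, 6.20% higher and 5.50% lower. At day 3 it was lower for Hoxa7, Hoxc6 and Hoxc8 and higher for Hoxb7, or 15.4% of the members. Of all genes 38.8% were called, 20.7% higher and 18.1% lower. Hoxa7 had the largest such term among the called members, -0.77 ± 0.11 (edgeR adjusted p = 1.02e-05), followed by Hoxb7 with 0.50 ± 0.11 (0.00101). With library totals these counts were 3 and 8 (7 of the 8 lower), and the share of all called genes that were higher went from 53.0% to 30.2% and from 53.3% to 35.7%. For Hoxb8, which was lower on every day, the term at day 3 was -0.50 ± 0.23 and did not pass (edgeR adjusted p = 0.0916).

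Other genes of the clusters and of HOX regulation are given from lists. Their counts at day 3 against day 0 in siControl stand beside 33.9% of all genes higher and 39.5% lower. Of 17 noncoding genes of the clusters, 15 were in the table and 5 were tested, with 1 higher and 1 lower. Hoxa11os, transcribed against Hoxa11, fell from 2.26 ± 0.51 CPM (SD, n = 3) in siControl at day 0 to 0.95 ± 0.25 at day 3, a log2FC of -1.24 ± 0.29 (edgeR adjusted p = 0.000552). Hoxa11 had -0.16 ± 0.27 over the same days, and 35.0% of its exon bases lie against Hoxa11os. Hoxaas2 rose from 1.05 ± 0.13 to 1.73 ± 0.40 CPM, with 0.72 ± 0.20 (edgeR adjusted p = 0.00245). Hotair and Hottip, the HOXC and HOXA long noncoding RNAs, had 27 and 8 counts over all libraries. Between siChst7 and siControl at day 3, Hoxa11os had -0.08 ± 0.33 and Hoxaas2 -0.01 ± 0.19 (edgeR adjusted p of 0.873 and 0.979).

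The TALE proteins (PBX, MEIS, PREP and TGIF) bind DNA together with HOX proteins or compete for their sites. Of 11 tested TALE genes, 3 were higher and 5 lower in siControl at day 3 against day 0, with a median log2FC of -0.07 where all genes had -0.05. Pbx3 went from 54.4 ± 1.13 to 37.4 ± 2.10 CPM, a log2FC of -0.54 ± 0.05 (edgeR adjusted p = 1.43e-09), and Meis1 from 15.5 ± 1.51 to 11.3 ± 0.33 (-0.46 ± 0.08, 3.79e-05). Pbx4 rose from 2.01 ± 0.15 to 5.82 ± 0.55 CPM (1.54 ± 0.15, edgeR adjusted p = 3.70e-09) and Pknox2 from 1.28 ± 0.23 to 3.86 ± 0.55 (1.59 ± 0.23, 1.80e-06). With siChst7 at day 3, 0 of the 11 were higher than in siControl and 5 were lower, where 23.1% of all genes were higher and 21.6% lower. Among the 5 was Meis2 at -0.22 ± 0.05 (edgeR adjusted p = 0.000732).

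Polycomb proteins keep HOX clusters silent and trithorax proteins keep them active. Of 21 Polycomb genes, 9 were higher and 10 lower in siControl at day 3 against day 0, a comparison in which 73.4% of all genes were called. Ezh1, an H3K27 methyltransferase, rose from 16.2 ± 1.40 to 29.2 ± 1.19 CPM (0.85 ± 0.07, edgeR adjusted p = 5.38e-10), and Cbx6 fell from 314 ± 10.5 to 223 ± 0.74 CPM (-0.49 ± 0.05, 2.91e-09). Of 8 trithorax genes and H3K27 demethylases, 2 were higher and 5 lower; the demethylase Kdm6b rose by 0.47 ± 0.05 (edgeR adjusted p = 1.10e-08) and Wdr5, a core subunit of the H3K4 methyltransferases, had -0.66 ± 0.05 (1.94e-11). Of 15 upstream regulators, which include the retinoic acid pathway, 8 were tested, with 2 higher and 3 lower: the retinoid receptor Rxra and the retinoic acid hydroxylase Cyp26b1 rose by 0.61 ± 0.06 (1.46e-08) and 1.26 ± 0.14 (4.62e-08), and the receptor Rarg had -0.58 ± 0.05 (edgeR adjusted p = 3.31e-10).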

How the data were processed

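Poly-A RNA-seq read counts per gene were deposited for 18 libraries; the count values are whole numbers, not normalized. The submitters' processing notes name Subread, featureCounts, HISAT2 and DESeq2, and the build mm10, as used by the authors. Versions, strand setting and the treatment of reads mapping to several places were not given in the sources used here. Columns were matched to samples by library name.

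Counts were tested with edgeR 4.0.16 (R 4.3.3): filterByExpr, which left 13802 genes, TMM scaling and 1 quasi-likelihood fit of 6 groups with no covariate and 12 residual degrees of freedom. Tests were two-sided and p-values Benjamini-Hochberg adjusted over all 13802 genes, with 0.05 as threshold. The SE was taken from the log2FC and the F statistic (its size divided by the root of F). CPM uses TMM-scaled totals, and levels per kilobase use the deposited gene lengths. On simulated counts for siControl day 1 against day 0, the fit on 13492 genes recovered 89.7% of 194 changed genes, and 5.43% of calls were false. The simulation changed few genes, drew rises and falls with equal odds and gave every gene the same dispersion. In the real comparison 60.3% of genes were called and replicate spread was uneven, so these rates need not hold for the data. Alternatives were RLE, upper quartile or no scaling, no filter, a filter of 1 CPM in 3 libraries, DESeq2 1.42.0, only the compared libraries, a replicate block, and leaving out each library.

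Coordinates and promoters are from RefSeq (GRCm38), and exon overlaps from GENCODE M21. Values per library are given for up to 4 called members each way per siControl comparison, with a mean of at least 1 CPM and groups apart, for members called between siRNAs or in an interaction, and for the highest and highest uncalled members; members given outside this rule were chosen after their values were seen. The members and lists were chosen with earlier results of these data known. Some genes counted among the members and lists are not reported here by name.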

Additional observations from a re-analysis of the deposited data

Results flagged for a closer look

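The size of the knockdown difference changed between days for 4 of the 26 tested HOX genes. The edgeR test was of that change itself, with p-values adjusted over all 13802 genes tested. At day 1 against day 0, 1 member (3.85%) was called, where 11.7% of all genes were. At day 3 against day 0, 4 members (15.4%) were called, where 38.8% of all genes were. For Hoxc6 the siChst7 difference was smaller at day 1 than at day 0, by a log2FC of -0.34 ± 0.07 (edgeR adjusted p = 0.00251), and at day 3, by -0.30 ± 0.07 (0.00166), although its level was higher with siChst7 in every library of days 0, 1 and 3. For Hoxa7 the term at day 3 was -0.77 ± 0.11 (edgeR adjusted p = 1.02e-05), with siChst7 above siControl at day 0 and below it at day 3. For Hoxb7 it was 0.50 ± 0.11 (edgeR adjusted p = 0.00101), with overlapping groups at day 0 and siChst7 above at day 3. For Hoxc8 it was -0.23 ± 0.08 (edgeR adjusted p = 0.0198), which did not pass without siControl day 0 replicate 3 (0.0593) or without siChst7 day 0 replicate 2 (0.0547) or 3 (0.0514).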

How the results depend on the processing

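Of 75 called values of named members, 52 were called in all 26 alternatives and 23 were not in at least 1. Leaving out 1 library at a time gave 11 to 15 called members for siControl day 1 against day 0, 7 to 11 for day 3 against day 1 (7 without siControl day 1 replicate 3), 12 to 16 for day 3 against day 0, and 12 to 15 for siChst7 day 3 against day 0. For siChst7 against siControl it gave 5 to 6, 2 to 5 and 5 to 7 at days 0, 1 and 3. For the interaction at day 1 it gave 1 to 2 and at day 3 3 to 6. The interaction at day 1, with 1 call, had 2 with upper quartile scaling, the stricter filter, DESeq2, only the compared libraries or the replicate block, and 3 with library totals. That at day 3 had 8 with library totals in place of 4. Uncalled values changed sign for Hoxb7: from day 1 to day 3 in siControl it was -0.06, and 0.0354 with upper quartile scaling, 0.0819 with library totals, 0.0041 with the stricter filter and -0.113 to 0.0273 leaving out libraries (highest without siControl day 1 replicate 3). With library totals it was 0.0359 for day 3 against day 0 and 0.0254 for siChst7 at day 0. For Hoxc8, siChst7 at day 3 ranged from -0.0506 to 0.0019 leaving out libraries (highest without siControl day 3 replicate 3). Same-numbered libraries did not deviate together (45 pairs, correlation -0.30 to 0.13, 1 above 0.1), so the numbers were not taken to pair samples. Among 90 pairs with different numbers it was -0.21 to 0.37, with 7 above 0.1. The highest was siChst7 day 0 replicate 3 with siChst7 day 3 replicate 2. A pairing or batch under other numbers was not tested. With the replicate block the counts were 15, 10, 15 and 16 over time, 6, 3 and 6 between siRNAs, and 2 and 4 for the interactions. Hoxa13 and the 13 untested members had few counts, or none in the case of Hoxd12. In a library, 3 counts corresponded to 0.0595 to 0.0966 CPM. Whether depth or near-absent RNA limited these genes was not tested.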

Other observations

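Of 17 other transcription factors that mark body position, 9 were tested. In siControl at day 3 against day 0, 0 of the 9 were higher and 7 lower, where 33.9% of all genes were higher and 39.5% lower, with a median log2FC of -0.39 where all genes had -0.05. The limb and craniofacial mesenchyme factor Prrx1 went from 241 ± 7.66 to 144 ± 1.75 CPM (SD, n = 3), a log2FC of -0.75 ± 0.04 (edgeR adjusted p = 1.69e-13). Its relative Prrx2 went from 19.4 ± 0.37 to 11.1 ± 1.66 CPM (-0.82 ± 0.09, edgeR adjusted p = 2.51e-08). Tbx18 and Tbx15, T-box factors of the body wall and shoulder girdle, had -0.69 ± 0.05 (1.14e-10) and -0.41 ± 0.05 (edgeR adjusted p = 5.11e-07). Time and induction cannot be told apart here either, and the difference from the HOX genes was not tested.

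Of 13 genes that flank the clusters, 12 were in the table and 9 were tested, with 4 higher and 3 lower at day 3 against day 0 in siControl, where 73.4% of all genes were called. Skap2, next to HOXA, rose from 29.8 ± 1.71 to 54.2 ± 1.55 CPM (0.86 ± 0.08, edgeR adjusted p = 8.34e-10), and Snx10 from 20.6 ± 1.09 to 38.9 ± 1.17 CPM (0.92 ± 0.07, 1.05e-10). In the other direction, Snx11 went from 47.9 ± 1.69 to 35.0 ± 0.42 CPM.

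Of the 61 HOXD counts, 22 were in replicate 3 of siChst7 at day 3, with 12 for Hoxd9 and 6 for Hoxd11, and 0 to 7 were in each other library. Hoxb1 had 9, 3 and 3 counts in siChst7 at day 3 and 0 in each siControl library of that day. These counts were seen by looking through members that the main fit did not test. The fit with no filter on low counts held 38 HOX genes, and no value of it is given for these members.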
